A study of Mus musculus with 13 samples.

Results

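F4/80+ cells of the mouse fetal liver were compared by whether they carried the fluorescence of an EKLF reporter. The comparison rests on 6 libraries, 3 of EKLF/GFP+ cells and 3 of EKLF/GFP- cells, taken by their titles from the 13 samples of the series, of which 12 are bulk libraries. EKLF, the product of Klf1, is a zinc-finger transcription factor of the red cell lineage that activates genes of globin, heme and red cell membrane production. F4/80, the product of Adgre1, is a surface receptor of macrophages. In the fetal liver, F4/80+ macrophages sit at the centre of erythroblastic islands, where they hold maturing erythroblasts, provide growth signals and engulf expelled nuclei. The question was which genes distinguish F4/80+ cells with an active EKLF promoter from those without.

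Both groups were C57BL/6 embryos at E13.5 with the genotype wild type (pEKLF-GFP). In this mouse, derived from embryonic stem cells with a single-copy transgene, the EKLF promoter drives eGFP, and cells were sorted by FACS as F4/80+GFP+ or F4/80+GFP-. The sort therefore read eGFP protein and not the Klf1 transcript, and eGFP itself is not among the annotated transcripts that were counted. Few GFP+ cells were recovered, and their RNA was isolated with the Agilent Absolutely RNA Nanoprep kit while Trizol was used for GFP- cells, so the RNA kit and the group cannot be told apart in any result. By the study's methods, EKLF/GFP+ RNA was less intact than that of other samples of the series, and the integrity of EKLF/GFP- RNA is not given in the sources used here. Each group had 3 biological replicates, and poly-A RNA was read as single reads of 100 nt.

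The estimated counts that the authors made with Salmon summed to 27556647, 25379330 and 25475902 in EKLF/GFP+ replicates 1, 2 and 3. In EKLF/GFP- replicates 1, 2 and 3 they summed to 26910637, 28736342 and 22723199. Between 18760 and 19353 genes had at least 1 count in a library. Values of 3 libraries are given in the order of replicates 1, 2 and 3. Levels are compared between libraries in normalized counts and between genes in TPM, which corrects for transcript length, and a log2 fold change is that of EKLF/GFP+ against EKLF/GFP-.

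The genes behind the sort came first. Klf1 measured 2626, 2356 and 2278 normalized counts in EKLF/GFP+ and 903, 1194 and 747 in EKLF/GFP-. The libraries of the groups did not overlap, and the log2 fold change was 1.35 (edgeR, Benjamini-Hochberg adjusted p = 0.000316), so EKLF/GFP- cells still held Klf1 transcripts. Adgre1 measured 954, 2155 and 2725 normalized counts in EKLF/GFP+ and 1575, 1275 and 2207 in EKLF/GFP-. These ranges overlapped, EKLF/GFP+ replicate 1 was the lowest of all libraries, and the gene did not pass the test (log2 fold change 0.21, adjusted p = 0.679). Ptprc, the leukocyte phosphatase known as the common leukocyte antigen, measured 1108, 1244 and 1857 normalized counts in EKLF/GFP+ and 6719.9, 6159.6 and 6296 in EKLF/GFP-. Itgam, the alpha chain of a myeloid complement receptor, measured 620.2, 838 and 1280.3 normalized counts in EKLF/GFP+ and 3737, 3264 and 3935 in EKLF/GFP-. Both were lower in each EKLF/GFP+ library than in any EKLF/GFP- library, with log2 fold changes of -2.19 and -1.998.

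Of 14248 genes tested, 2695 were higher in EKLF/GFP+ cells (18.9%), 3677 were lower (25.8%) and 7876 did not pass the edgeR test at a Benjamini-Hochberg adjusted p under 0.05. The median log2 fold change over all genes tested was -0.01, and its quartiles were -0.51 and 0.29. The changes were unequal in size, since 711 genes rose and 2093 genes fell by at least 2-fold. Libraries of one group correlated across genes at 0.979 to 0.989, and libraries of different groups at 0.927 to 0.949. The values of the groups did not overlap for 55.7% of the genes tested.

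**Figure D1:**
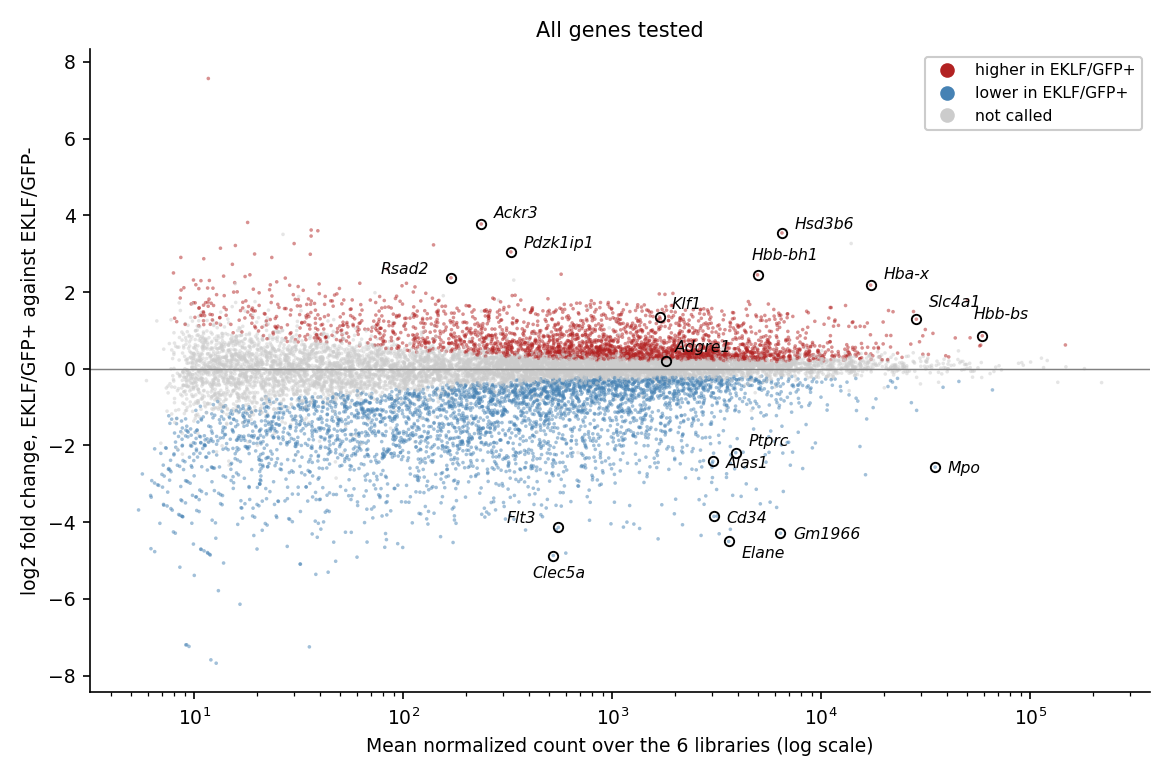
Each point is a gene tested, placed by its mean normalized count over the 6 libraries (log scale) and its log2 fold change between EKLF/GFP+ and EKLF/GFP- cells (TMM scaling), with 2695 genes higher in red, 3677 lower in blue and 7876 not called in grey. Klf1 and the early globins lie above 0, genes of granules and progenitors lie far below it, and Adgre1 lies near it.

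Marker lists of 12 cell types were compared between the groups, beginning with erythroid-like, neutrophil-like and monocyte-like genes. All 14 erythroid-like markers rose, with a median log2 fold change of 1.40, and their summed level was 13048, 13681 and 13251 TPM in EKLF/GFP+ and 7788, 9467 and 6385 in EKLF/GFP-. Hbb-bs, the adult beta globin, was the most abundant of them. Erythroid-like transcripts were thus abundant in both groups. All 18 neutrophil-like markers fell, with a median of -3.52, and summed to 360, 569 and 742 TPM in EKLF/GFP+ and 4136, 4213 and 4832 in EKLF/GFP-. All 11 monocyte-like markers fell as well, with a median of -3.57, from 1203, 1016 and 1229 TPM in EKLF/GFP- to 89.0, 115 and 138 in EKLF/GFP+. S100a9, a calcium-binding protein of neutrophils, and Plac8 were the most abundant markers of these lists. In bulk samples, fewer cells of a type and less RNA per cell cannot be told apart, and the part of these cell types in the other results was not tested.

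**Figure D2:**
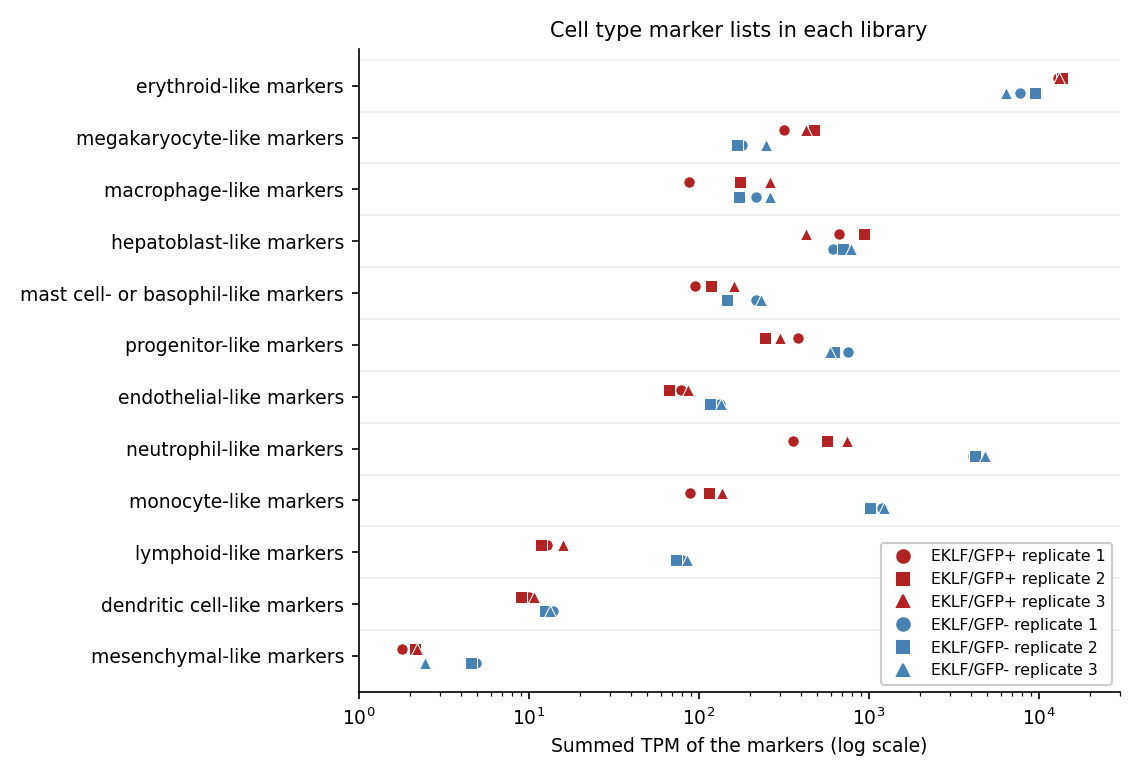
The summed TPM of each cell type marker list (log scale) is drawn for the 3 EKLF/GFP+ libraries in red and the 3 EKLF/GFP- libraries in blue, with a symbol for each replicate. Erythroid-like markers lie between 13048 and 13681 TPM in EKLF/GFP+, neutrophil-like markers reach at most 742 there and at least 4136 in EKLF/GFP-, and macrophage-like markers overlap.

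Macrophage-like markers did not separate the groups in this way. Of 21 listed, 19 were tested, 5 fell (26.3%, near the 25.8% of all genes tested) and the others did not pass, with a median log2 fold change of 0.12. Their summed level was 87.5, 176 and 262 TPM in EKLF/GFP+ and 217, 172 and 262 in EKLF/GFP-, with Adgre1 as the most abundant. The EKLF/GFP+ libraries differed among themselves: all 19 tested markers were highest in EKLF/GFP+ replicate 3 and 18 of them were lowest in EKLF/GFP+ replicate 1. The median log2 ratio of EKLF/GFP+ replicate 3 to replicate 1 was 1.34 over these markers and 0.00 over all genes tested, of which 38.3% were lowest in EKLF/GFP+ replicate 1. Marco, a scavenger receptor of tissue macrophages, measured 591, 1722 and 2069.5 normalized counts in EKLF/GFP+ and 493, 392 and 979 in EKLF/GFP-. C1qb, a chain of the complement component that macrophages secrete, measured 435, 732 and 1009 normalized counts in EKLF/GFP+ and 592, 554 and 850.4 in EKLF/GFP-. The spread of both within EKLF/GFP+ exceeded the difference between the groups, and neither passed the test. Marco was called higher under 5 of 17 alternatives, among them the replicate number as a block, and C1qb under none. With that block 3 macrophage-like markers were called higher and 6 lower. Without EKLF/GFP+ replicate 1, 4 were called higher, and without EKLF/GFP+ replicate 3, 8 were called lower.

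The 5 markers that fell are given one by one, since a share of this size is no result about the list. Cx3cr1, the fractalkine receptor, fell by 2.12 on the log2 scale, and Csf1r, the receptor for macrophage colony-stimulating factor, by 1.75. Csf1r measured 663, 1183 and 1683 normalized counts in EKLF/GFP+ and 4328, 3398 and 4171 in EKLF/GFP-, without overlap. Fcgr1, the high-affinity receptor for immunoglobulin G, had a log2 fold change of -2.09, Cd14, the co-receptor for lipopolysaccharide, -3.32, and Cd68, a late endosomal glycoprotein, -0.92. Among the defining markers of resident macrophages, Vsig4 and Cd163 were too low to be tested, and Timd4, the phosphatidylserine receptor, measured 195, 385 and 568 normalized counts in EKLF/GFP+ and 190.5, 137 and 277 in EKLF/GFP-. Timd4 overlapped between the groups.

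The erythroid program was described by lists ordered from hemoglobin to the membrane and its regulators. All 8 globin genes of the list rose, with a median log2 fold change of 1.33. The 12 genes with globin symbols took 1.15%, 1.52% and 1.47% of all counts in EKLF/GFP+ and 0.701%, 0.787% and 0.680% in EKLF/GFP-. The shares did not overlap (exact permutation p = 0.1, two-sided, the smallest that 3 against 3 libraries can give). Among the abundant globins, the embryonic ones showed the larger rises. Hbb-bh1, a beta-like globin of primitive red cells, measured 405, 433 and 669 TPM in EKLF/GFP+ and 111, 74.0 and 103 in EKLF/GFP-. Hba-x, the embryonic alpha-like globin, measured 1086, 1194 and 1585 TPM in EKLF/GFP+ and 383, 154 and 276 in EKLF/GFP-, and Hbb-y, the other embryonic beta-like globin, 3318, 4679 and 5161 TPM in EKLF/GFP+ and 1608, 899.8 and 1488 in EKLF/GFP-. All 3 were higher in each EKLF/GFP+ library, with log2 fold changes of 2.45, 2.18 and 1.79, while adult Hbb-bs reached 0.86. Hbb-bh2, scarce at 21.8, 32.5 and 31.2 normalized counts in EKLF/GFP+ and 3.75, 1.84 and 3.32 in EKLF/GFP-, rose most, at 3.21.

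The embryonic genes accordingly held a larger part of globin transcripts in EKLF/GFP+ cells. Of the TPM of all beta-like globins, 34.1%, 41.2% and 44.7% were embryonic in EKLF/GFP+ and 27.8%, 15.6% and 32.2% in EKLF/GFP-. For alpha-like globins the embryonic share was 10.6%, 10.2% and 13.6% against 5.68%, 1.86% and 4.43%. The shares did not overlap, although EKLF/GFP- replicate 2 stood lowest in each family. These shares, like the other shares within a family, were chosen after the values had been seen and carry no test. The reads of Hba-a1 and Hba-a2, and of Hbb-bs and Hbb-bt, come from nearly identical copies, so the division between copies is uncertain.

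Heme synthesis rose, with all 10 members of its list higher and a median log2 fold change of 1.37. Alas1 was placed in the next list. Alas2, the erythroid enzyme of the first step, measured 209.7, 219.6 and 267 TPM in EKLF/GFP+ and 88.4, 81.8 and 66.3 in EKLF/GFP-. In contrast Alas1, its counterpart in other tissues, measured 30.6, 29.0 and 34.0 TPM in EKLF/GFP+ and 192, 155 and 162 in EKLF/GFP-. The 2 genes moved in opposite directions, with log2 fold changes of 1.60 and -2.41. Alas2 thus made up 87.3%, 88.3% and 88.7% of the TPM of both genes in EKLF/GFP+ and 31.5%, 34.5% and 29.0% in EKLF/GFP-. The log2 fold changes of the other members, from Alad and Urod to the last enzyme Fech, lay between 1.18 and 1.50. The call of Fech was lost on the authors' normalized counts.

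The list of heme breakdown and transport had 6 of 8 members higher and 2 lower, which were Alas1 and Hmox2. Blvrb, a reductase of the late breakdown pathway that is abundant in red cells, measured 311, 292 and 327 TPM in EKLF/GFP+ and 127, 132 and 95.4 in EKLF/GFP-, and Hmox1, the inducible heme oxygenase, 42.0, 55.5 and 84.7 TPM in EKLF/GFP+ and 25.1, 20.4 and 34.0 in EKLF/GFP-. Hmox1 rose with a log2 fold change of 1.25, while Hmox2, the constitutive oxygenase, fell by 0.87. Abcb6, a porphyrin transporter that also carries a blood group, had the largest rise of this list, at 1.43. Of 18 genes of iron handling, 9 rose and 3 fell, with a median of 0.19. Ftl1, the ferritin light chain, was the most abundant at 2726, 2495 and 3067 TPM in EKLF/GFP+ and 1870.3, 2073 and 1564 in EKLF/GFP-. Tfr2, the second transferrin receptor, had the largest rise at 1.46, a call lost on the authors' normalized counts. Tfrc, the main transferrin receptor, measured 38885, 46456 and 41209 normalized counts in EKLF/GFP+ and 20995, 22371 and 18917 in EKLF/GFP-. Of the falls, only Fbxl5, which senses iron, reached a mean of 100 normalized counts, with a log2 fold change of -0.30, and its call was lost in 10 of 17 alternatives. The 3 falls of this list were 0 under several alternatives.

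The membrane skeleton, a spectrin and ankyrin mesh under the red cell membrane, had 13 of 15 members higher, 2 lower and a median of 1.29. Sptb, the erythroid beta spectrin, measured 29254, 33418 and 34842 normalized counts in EKLF/GFP+ and 11810, 12826 and 10157 in EKLF/GFP-. Ank1, which ties spectrin to the membrane, measured 34899, 44650 and 42759 normalized counts in EKLF/GFP+ and 14524, 15321 and 13645 in EKLF/GFP-, and Add2, a cap of the junctions between spectrin and actin, 5993, 6633 and 6951 normalized counts in EKLF/GFP+ and 2186, 2524 and 1951 in EKLF/GFP-. Each of the 3 was more than 2-fold higher, without overlap, and the largest rise was that of Tmod1, a cap of actin filament ends, at 1.66. The falls were in paralogs found in many cell types. Tpm3, a tropomyosin, was the most abundant member by length at 489, 351 and 453 TPM in EKLF/GFP+ and 1079, 962 and 917 in EKLF/GFP-, and Add3 had a log2 fold change of -0.70. So Add1 and Add2 rose while Add3 fell, and Tpm1 rose while Tpm3 fell.

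Blood group carriers behaved in the same manner, with 15 of 16 tested members higher and a median of 1.32. Kel, the endopeptidase with the Kell antigens, was the most abundant at 613, 841 and 732 TPM in EKLF/GFP+ and 235, 239.7 and 238 in EKLF/GFP-. Rhd and Rhag, which form the Rh complex, had log2 fold changes of 1.69 and 1.50. Ackr1, a chemokine scavenger that bears the Duffy antigens, measured 1150.4, 1321 and 1288 normalized counts in EKLF/GFP+ and 388, 454 and 313 in EKLF/GFP-, the largest rise of the list. Cd44, an adhesion receptor for hyaluronan that is also on leukocytes, was the exception and fell by 0.65 on the log2 scale.

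**Figure D3:**
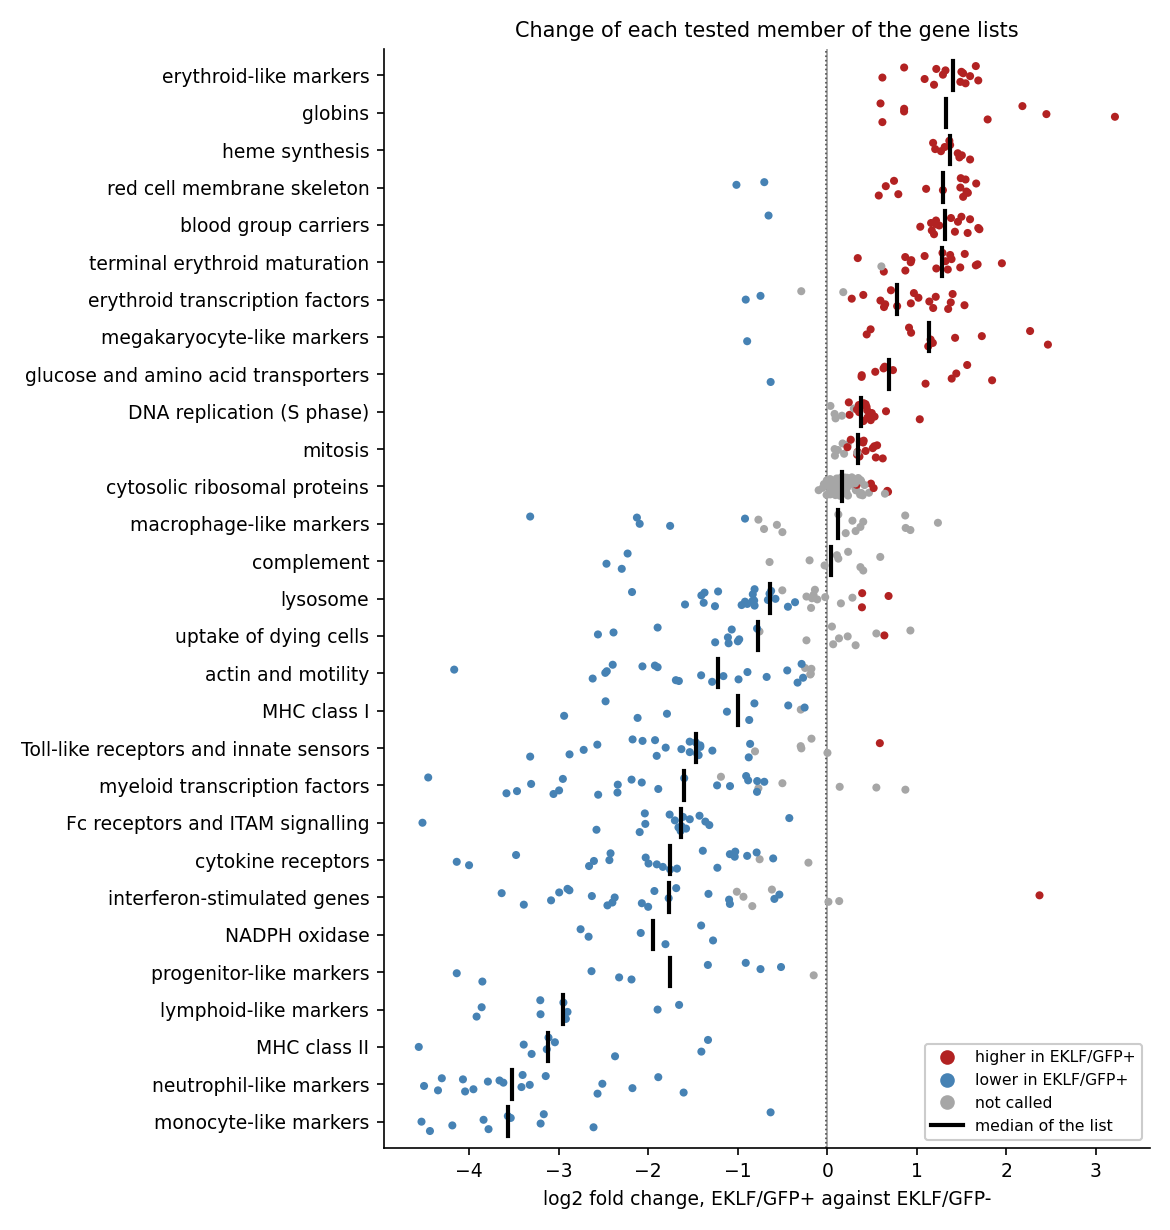
Each point is a tested member of a gene list, placed by its log2 fold change between EKLF/GFP+ and EKLF/GFP- cells (TMM scaling), in red where called higher, blue where called lower and grey otherwise, with a black bar at the median of the list. Of the lists drawn, those from erythroid-like markers to erythroid transcription factors have medians between 0.78 and 1.40 and those from the lysosome downward between -0.64 and -3.57, and macrophage-like markers and complement spread around 0, where the sign of their medians changed between alternatives. Not all lists are drawn, and among those left out are heme breakdown and transport (median 0.60), iron handling (0.19) and signalling of erythropoietin and stem cell factor (0.26).

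Terminal erythroid maturation, the enzymes that clear organelles and remodel the late red cell, had 18 of 19 members higher (median 1.29). Bpgm, which makes the bisphosphoglycerate that lowers the oxygen affinity of hemoglobin, measured 2146, 2216 and 3639.5 normalized counts in EKLF/GFP+ and 730.1, 628 and 712 in EKLF/GFP-, the largest rise. Bnip3l, the receptor for removal of mitochondria, was the most abundant at 747, 700.2 and 884 TPM in EKLF/GFP+ and 447, 426 and 413 in EKLF/GFP-. Hemgn, a nuclear protein of erythroid progenitors, measured 16168, 14886 and 15473 normalized counts in EKLF/GFP+ and 6349, 7777 and 4497 in EKLF/GFP-, and Nxpe2 measured 9366, 9101 and 8891 normalized counts in EKLF/GFP+ and 3506, 4226 and 2715 in EKLF/GFP-. The groups were apart in each of these genes, and Isg20 was the single member that did not pass. Among antioxidant enzymes 12 of 16 rose and 2 fell (median 0.40). Sod1, the cytosolic superoxide dismutase, was the most abundant, with a log2 fold change of 0.39. Nqo1, a quinone reductase, rose most at 1.48, Prdx2, the peroxiredoxin of red cells, rose by 1.11 and Prdx5, found in mitochondria and peroxisomes, fell by 1.37 on the log2 scale.

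Of 21 erythroid transcription factors, 17 rose and 2 fell, with a median of 0.78. Gfi1b, a repressor of the erythroid and megakaryocytic lineages, was the most abundant by length at 171, 168 and 235 TPM in EKLF/GFP+ and 60.4, 77.0 and 74.1 in EKLF/GFP-. Gata1, the central activator of the lineage, measured 35.9, 34.3 and 40.7 TPM in EKLF/GFP+ and 15.1, 15.9 and 11.7 in EKLF/GFP-, without overlap. Sox6, a silencer of embryonic globin genes in definitive cells, had the largest rise, at 1.53, a call lost on the authors' normalized counts. The 2 falls were Myb and Gata2, which act in progenitors. Myb measured 5899, 4307 and 4745 normalized counts in EKLF/GFP+ and 10137, 9478 and 8474 in EKLF/GFP-, lower in each EKLF/GFP+ library. Gata1 made up 86.8%, 87.9% and 86.7% of the TPM of Gata1 and Gata2 in EKLF/GFP+ and 57.1%, 65.0% and 52.6% in EKLF/GFP-.

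In signalling through the receptors of erythropoietin and stem cell factor, 8 of 16 members rose and 5 fell (median 0.26). The share that fell was 31.2%, near the 25.8% of all genes tested. Among the rises were the receptor Epor at 1.62, the feedback inhibitors Cish at 1.12 and Socs2 at 1.12, and Bcl2l1, which protects erythroblasts from death, at 1.02. The phosphatase Ptpn6, which shuts off the receptor in blood cells, was the most abundant member and measured 1094, 1167 and 1375 normalized counts in EKLF/GFP+ and 4490.2, 4451 and 5151 in EKLF/GFP-. It fell by 1.95 on the log2 scale, and the kinase Lyn by 1.32 and the receptor Kit by 0.52.

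The bases before the starts of these genes are shown because heme, skeleton and blood group genes moved together and EKLF is known to bind CACCC-like motifs. The letters CCNCNCCC were searched on both strands in the RefSeq promoter table (GRCm38.p6), in up to 250 bases before the start. The shares count matches in all these bases, and only the printed stretches leave out annotated exons. Among tested genes with an entry, 6597 of 9895 held a match (66.7%), and among the members of the 3 lists 20 of 32 did (62.5%). The motif is therefore common in promoters, and its share in these lists was close to that in all genes. Capitals mark a single match in each of the 5 members with the largest rises that held a match outside exons. Up to 40 bases are printed on each side. The stretches of Sptb and Cd59a hold further matches in lower case, that of Add2 holds another that overlaps the capitals, and the stretch of Klf1 holds no match.
Klf1 (chr8:84901840-84901927, + strand): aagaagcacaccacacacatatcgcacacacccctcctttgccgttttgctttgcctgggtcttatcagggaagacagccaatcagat
Icam4 (chr9:21029280-21029367, + strand): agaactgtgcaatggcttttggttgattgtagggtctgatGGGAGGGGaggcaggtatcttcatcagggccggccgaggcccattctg
Add2 (chr6:86028602-86028680, + strand): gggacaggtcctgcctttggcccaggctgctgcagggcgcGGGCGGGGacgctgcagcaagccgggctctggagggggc
Sptb (chr12:76710596-76710683, - strand): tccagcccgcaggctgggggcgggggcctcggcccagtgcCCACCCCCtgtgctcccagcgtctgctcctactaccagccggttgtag
Uros (chr7:133709296-133709367, - strand): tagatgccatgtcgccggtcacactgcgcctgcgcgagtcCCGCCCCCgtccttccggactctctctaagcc
Cd59a (chr2:104095748-104095800, + strand): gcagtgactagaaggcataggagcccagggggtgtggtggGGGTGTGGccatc
These genes had log2 fold changes of 1.35 for Klf1, 1.57 for Icam4, an erythroblast adhesion molecule, 1.55 for Add2, 1.49 for Sptb, 1.48 for Uros, a heme synthesis enzyme, and 1.38 for Cd59a, an inhibitor of complement lysis. A match describes the sequence and is not evidence of binding.

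Of 17 tested genes of the erythroblastic island 8 rose and 2 fell, with a median of 0.89. Adra2b, an adrenergic receptor, had the largest rise and measured 1342, 1489.5 and 1526 normalized counts in EKLF/GFP+ and 452, 491 and 419.6 in EKLF/GFP-, so that the lowest EKLF/GFP+ library lay far above the highest EKLF/GFP- library. Itga4, an integrin chain on erythroblasts and macrophages, rose by 0.25 on the log2 scale, a call lost in 7 of 17 alternatives, while Itgav, an integrin chain of the macrophage side, fell by 1.25. Itgb1, their common beta chain, was the most abundant at 199, 178 and 186 TPM in EKLF/GFP+ and 204, 172 and 194 in EKLF/GFP- and did not pass the test. Vcam1, the macrophage partner of Itga4, measured 728, 1383 and 2091 normalized counts in EKLF/GFP+ and 693, 608 and 961 in EKLF/GFP-. It overlapped between the groups and did not pass the test (log2 fold change 0.89, adjusted p = 0.0695), but was called higher under 5 of 17 alternatives, among them the replicate number as a block. EKLF/GFP+ replicate 1 was the lowest of the EKLF/GFP+ libraries in Vcam1 as in the macrophage-like markers, and without it 10 members were called higher in place of 8.

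Uptake of dying cells had 1 of 20 tested members higher and 10 lower (median -0.77). Elmo1, which had the largest fall, and Dock2 together activate the small GTPase Rac behind engulfment and migration. Dock2, the most abundant member, measured 2236, 2349 and 3024 normalized counts in EKLF/GFP+ and 9825, 8718 and 9727 in EKLF/GFP-, and Elmo1 measured 642, 753 and 937 normalized counts in EKLF/GFP+ and 5033, 4360.3 and 4356 in EKLF/GFP-. Among the receptors that recognise phosphatidylserine directly or through bridging proteins, Timd4 and Mertk did not pass the test, with log2 fold changes of 0.93 and 0.32. Timd4 was called higher under 4 of 17 alternatives, among them DESeq2 and the replicate number as a block. Itgb3, a beta chain that is also abundant on megakaryocytes, was the rise, at 0.64. Without EKLF/GFP+ replicate 1, 4 members were called higher. In this list 18 of 20 members were lowest in EKLF/GFP+ replicate 1 among the EKLF/GFP+ libraries.

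Of 12 complement genes tested 3 fell, a share near the 25.8% of all genes tested, and the others did not pass. C3, the central component, measured 1152, 1351 and 877 normalized counts in EKLF/GFP+ and 6153, 6339.7 and 6169 in EKLF/GFP-, and C5ar1, an anaphylatoxin receptor, had a log2 fold change of -2.29. C1qa and C1qc, secreted by macrophages, had values of 0.40 and 0.37 and did not pass. Of 34 lysosomal genes tested, 3 rose and 21 fell (median -0.64). Ctsc, the protease that activates the serine proteases of granules, measured 1394, 2319.7 and 2391 normalized counts in EKLF/GFP+ and 8402, 8094 and 11149 in EKLF/GFP-, the largest fall with at least 100 normalized counts. Ctsb, Ctsd and Tpp1, proteases of the lysosome interior, rose by 0.69, 0.39 and 0.39, and without EKLF/GFP- replicate 1 1 rise was called. Ctss, which trims the invariant chain in antigen-presenting cells, fell by 1.41.

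Of 27 myeloid transcription factors 21 fell and the others did not pass, with a median of -1.60. Spi1, the activator shared by macrophages and granulocytes and an antagonist of Gata1, measured 19.8, 20.5 and 28.8 TPM in EKLF/GFP+ and 152, 128 and 144 in EKLF/GFP-. Its TPM as a share of Spi1 and Gata1 was 35.6%, 37.4% and 41.5% in EKLF/GFP+ and 91.0%, 88.9% and 92.5% in EKLF/GFP-, so Gata1 exceeded Spi1 in each EKLF/GFP+ library and the reverse held in each EKLF/GFP- library. Irf8, needed for monocytes and dendritic cells, measured 45.4, 109 and 110.1 normalized counts in EKLF/GFP+ and 1088, 835 and 1232 in EKLF/GFP-, the largest fall in this list among genes with at least 100 normalized counts. Cebpa, a driver of granulocyte fate, had a log2 fold change of -2.34, and Runx2 -2.99. Spic, needed for iron-recycling macrophages, had 0.87, Nr1h3, a sterol receptor, 0.55, and Maf -0.77, and none of these 3 passed the test. Spic was called higher under 3 of 17 alternatives, Nr1h3 higher under 1 and Maf lower under 1. Without EKLF/GFP+ replicate 1, 2 factors of this list were called higher.

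Of 17 Fc receptors and signalling partners with activating tyrosine motifs, all 17 fell, with a median of -1.64. Tyrobp, the adaptor of many myeloid receptors, was the most abundant and measured 41.8, 62.5 and 75.2 TPM in EKLF/GFP+ and 195, 160.4 and 229 in EKLF/GFP-. Plcg2, the phospholipase of this pathway, had the largest fall among members with at least 100 normalized counts, at -2.58, and Btk, a kinase of B cells and myeloid cells, fell least, at -0.42. All 6 subunits of the phagocyte NADPH oxidase fell as well (median -1.94). The membrane subunit Cybb measured 710.1, 1246 and 1647 normalized counts in EKLF/GFP+ and 3925, 4104 and 4564 in EKLF/GFP-, and the cytosolic subunits Ncf1 and Ncf4 had log2 fold changes of -2.66 and -2.75. Cyba had -1.27, and Rac2, the small GTPase of the complex and its most abundant member by length, -1.41.

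Among Toll-like receptors and innate sensors, 20 of 26 tested members fell and 1 rose, with a median of -1.46. All 10 Toll-like receptor genes tested were among the falls, from -0.88 for Tlr1 to -2.88 for Tlr9, a receptor for unmethylated DNA. The call of Tlr1 was lost in 8 of 17 alternatives. Tmem173, the adaptor of cytosolic DNA sensing also called STING, was the most abundant member by length and measured 114, 110.4 and 153 normalized counts in EKLF/GFP+ and 736, 709 and 788 in EKLF/GFP-. In the authors' own table of normalized counts this gene is near 0 in every library and shows no fall. Casp1, the protease of inflammasomes, had a log2 fold change of -2.72. Mavs, the mitochondrial adaptor of RNA sensors, was the rise, at 0.59, and its call was lost under some alternatives. Among the sensors of RNA, Ddx58 had -1.45, and Ifih1 had -0.29 and did not pass.

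Interferon-stimulated genes had 20 of 27 tested members lower and 1 higher (median -1.77). Ifitm3, a membrane protein that blocks virus entry, measured 165, 252 and 185 normalized counts in EKLF/GFP+ and 1486, 1150.5 and 1850.2 in EKLF/GFP-, without overlap. Rsad2, an antiviral enzyme known as viperin, went the other way and measured 188, 232 and 429.9 normalized counts in EKLF/GFP+ and 57.2, 36.8 and 70.9 in EKLF/GFP-. It was higher in each EKLF/GFP+ library, the exception in this list. The falls were 13 without EKLF/GFP- replicate 1. Stat2, a factor that carries the interferon signal, fell by 0.53 on the log2 scale, a call lost in 5 of 17 alternatives.

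All 9 genes of MHC class II presentation were called lower, with a median of -3.11. H2-Aa, H2-Eb1, Ciita and H2-DMb2 passed the count filter only through the EKLF/GFP- libraries, so their calls depend on that filter. H2-DMa, which loads peptides, measured 31.2, 26.0 and 27.0 normalized counts in EKLF/GFP+ and 255, 185 and 293 in EKLF/GFP-, and Cd74, the invariant chain, 11.4, 14.1 and 19.7 normalized counts in EKLF/GFP+ and 173, 110.3 and 114 in EKLF/GFP-. These levels were low in both groups, and with at least 10 counts required in every library 5 members were called lower. MHC class I had 9 of 10 members lower (median -0.995). Tapbp was also lower in each EKLF/GFP+ library but did not pass (log2 fold change -0.30, edgeR adjusted p = 0.0542). H2-D1, a classical heavy chain, was the most abundant and measured 3533, 3756 and 4399 normalized counts in EKLF/GFP+ and 5241, 4927 and 5633 in EKLF/GFP-. Its log2 fold change of -0.43 was small beside those of Psmb8 and Psmb9, immunoproteasome subunits that replace constitutive ones in antigen-presenting cells. Psmb8 measured 115, 187 and 179 normalized counts in EKLF/GFP+ and 1221, 966 and 1488 in EKLF/GFP-, and Psmb9 had a log2 fold change of -2.47. Over the 38 proteasome subunits tested the median was 0.19, with 13 higher and 3 lower. Without EKLF/GFP- replicate 1, 6 were called higher and 2 lower. The 3 falls were all immunoproteasome subunits, Psmb10 being the third at -0.25. That value turned to 0.061 with an offset for average transcript length, and the call was kept in 7 of 17 alternatives.

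Signals between leukocytes were mostly lower at the level of receptors. Of 23 cytokine receptor genes 21 fell (median -1.75). Csf2rb, the shared beta chain of several myeloid receptors, was the most abundant and measured 1191, 1396 and 1753 normalized counts in EKLF/GFP+ and 6330.4, 5210.3 and 6145 in EKLF/GFP-. Csf3r, the receptor of granulocyte colony-stimulating factor, measured 113, 139 and 164 normalized counts in EKLF/GFP+ and 2488, 2077 and 2071 in EKLF/GFP-, and Flt3, a receptor of lymphoid and dendritic progenitors, 64.4, 52.0 and 61.3 normalized counts in EKLF/GFP+ and 1147, 971 and 1019 in EKLF/GFP-. Each was many times lower in EKLF/GFP+. Of 13 cytokines and growth factors tested 4 fell (30.8%, near the 25.8% of all genes tested), among them Tgfb1, the most abundant, at -0.77. The median was -0.05, of either sign between alternatives. Of 8 chemokines tested 3 fell (37.5%, median -0.71), with Ccl9 the most abundant at 149.6, 195 and 190.0 normalized counts in EKLF/GFP+ and 547, 442 and 600.1 in EKLF/GFP-. Osm and Igf1, growth factors that macrophages secrete, did not pass, with 0.13 and 0.83.

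Of 10 chemokine receptors tested, 7 fell and 3 rose (median -1.99). The falls included Ccr2, which draws monocytes out of the marrow, at 362, 457 and 493 normalized counts in EKLF/GFP+ and 5545, 4654 and 4988 in EKLF/GFP- and Cxcr4, the receptor that retains progenitors, at 585, 693 and 856 normalized counts in EKLF/GFP+ and 2492, 2675 and 2448 in EKLF/GFP-. The 2 atypical receptors tested, which bind chemokines without G protein signalling, rose. Ackr3 measured 373, 219.7 and 728 normalized counts in EKLF/GFP+ and 61.9, 15.6 and 17.7 in EKLF/GFP-, the largest rise of all genes with at least 100 normalized counts and no overlap, and Ackr1 made up 53.0%, 47.2% and 41.6% of the TPM of the listed receptors in EKLF/GFP+ and 5.87%, 7.21% and 4.68% in EKLF/GFP-. Ccr3, the eosinophil receptor, which does signal, was the third rise, at 1.32.

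Adhesion and movement followed the leukocyte genes. Of 14 C-type lectins tested 8 fell and 1 rose (median -1.45). Clec4a2, an inhibitory lectin of myeloid cells, was the most abundant at 7.67, 20.3 and 25.4 TPM in EKLF/GFP+ and 83.7, 59.3 and 85.2 in EKLF/GFP-, Clec5a had the largest fall at -4.87, and Clec1b, the podoplanin receptor of platelets, rose by 0.86. The rise of Clec1b was not called without EKLF/GFP+ replicate 2 or 3 or EKLF/GFP- replicate 1 or 2. Of 16 integrin chains tested 10 fell (62.5%) and 3 rose (18.8%, near the 18.9% of all genes tested), with a median of -0.79. The rises were the platelet chains Itga2b (0.44) and Itgb3 and the erythroblast chain Itga4, and without any library but EKLF/GFP+ replicate 1 a single chain was called higher. Itga1, a collagen receptor chain, fell most at -3.26, and Itgal and Itgb2, the chains of a leukocyte integrin, fell by 1.76 and 1.50. Of 24 genes of actin and motility 20 fell (median -1.22). Actb was the most abundant with a log2 fold change of -0.33, while the leukocyte genes Lsp1, which binds actin in migrating neutrophils, and Coro1a measured 119, 142 and 167 normalized counts in EKLF/GFP+ and 2658, 2279.9 and 2742 in EKLF/GFP- and 709, 863 and 1200.4 normalized counts in EKLF/GFP+ and 5020.4, 5236 and 5005 in EKLF/GFP-.

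The granule and monocyte genes behind the largest falls were still clearly measured in EKLF/GFP+ cells. Mpo, the myeloperoxidase of primary granules, measured 8972, 9984 and 11489 normalized counts in EKLF/GFP+ and 58060, 63497 and 58546 in EKLF/GFP-. Elane, the neutrophil elastase, measured 236, 352 and 328 normalized counts in EKLF/GFP+ and 6919, 6788 and 7014 in EKLF/GFP-, and Ly6c2, a surface marker of inflammatory monocytes, 116, 154 and 170.3 normalized counts in EKLF/GFP+ and 3434, 2522 and 3547 in EKLF/GFP-. EKLF/GFP+ replicate 1 was the lowest in Mpo, Elane and Ly6c2, and EKLF/GFP- libraries lay far above. The pattern resembled that of the macrophage-like markers within EKLF/GFP+: 16 of 18 neutrophil-like markers were lowest in replicate 1, with a median log2 ratio of replicate 3 to replicate 1 of 1.32. The same ratio was 0.83 for the Fc receptor list, 0.71 for myeloid transcription factors and 0.19 for erythroid-like markers. The falls against EKLF/GFP- were larger than these spreads.

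Markers of other lineages gave a mixed picture. Of 12 megakaryocyte-like markers 11 rose and 1 fell, with a median of 1.14, and they summed to 317, 477 and 429 TPM in EKLF/GFP+ and 180, 169 and 249 in EKLF/GFP-. Pf4, a platelet chemokine, was the most abundant and measured 1215, 2285 and 1801 normalized counts in EKLF/GFP+ and 677, 689 and 1061 in EKLF/GFP-, and Ppbp, a second platelet chemokine, 659, 1256 and 975 normalized counts in EKLF/GFP+ and 117, 164 and 244 in EKLF/GFP-. Both were higher in each EKLF/GFP+ library. Of 10 progenitor-like markers 9 fell (median -1.76), from 755, 623 and 593 TPM in EKLF/GFP- to 382, 245 and 301 in EKLF/GFP+. Cd34, a sialomucin of progenitors and endothelium, measured 364, 386 and 442 normalized counts in EKLF/GFP+ and 6320.1, 4798 and 6084 in EKLF/GFP-. Adgrg1, the most abundant of this list, did not pass (-0.15), but was called higher on the authors' normalized counts (0.54).

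Of 9 lymphoid-like markers tested all 9 fell (median -2.95), and the list summed to 12.8, 11.9 and 15.9 TPM in EKLF/GFP+ and 79.8, 73.7 and 85.5 in EKLF/GFP-. Nkg7, a granule protein of killer cells, was the most abundant, Ighm, the heavy chain of early antibodies, measured 63.4, 54.1 and 61.3 normalized counts in EKLF/GFP+ and 812, 891 and 900.2 in EKLF/GFP-, and the T cell marker Cd3e had 0 counts in every library. With any EKLF/GFP- library left out, 5 markers were called lower. The filter of 10 counts in 3 libraries was kept there. A marker that reached 10 counts only in the EKLF/GFP- libraries then left the test, so the count of 9 depends on that filter. The call of Nkg7 was lost on the authors' normalized counts. Dendritic cell-like markers were scarce, at 10.0, 9.06 and 10.8 TPM against 13.9, 12.5 and 13.4. Of the 6 tested 4 fell and 1 rose, with a median of -3.42 that lay between -3.63 and -0.06 under the alternatives. The rise was Zbtb46, a factor of conventional dendritic cells that is also expressed in erythroid progenitors and endothelium, which was the most abundant and measured 702, 714 and 758 normalized counts in EKLF/GFP+ and 249, 297 and 230.3 in EKLF/GFP-. With any EKLF/GFP- library left out, or with at least 10 counts required in every library, 1 marker was called lower. The count of 4 falls thus depends on the count filter, since a marker with 10 counts in the EKLF/GFP- libraries alone leaves the test in both cases.

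Endothelial-like markers had 8 of 10 members lower (median -1.77), with sums of 79.1, 67.2 and 86.4 TPM in EKLF/GFP+ and 134, 117 and 135 in EKLF/GFP-. Stab2, a scavenger receptor of liver sinusoids, measured 436, 609 and 712 normalized counts in EKLF/GFP+ and 1898, 1782 and 2144 in EKLF/GFP-, and Lyve1, a hyaluronan receptor of sinusoids and of some macrophages, had -2.06. Egfl7, the most abundant, and Cdh5, the cadherin that defines endothelium, did not pass, with -0.21 and -0.07. Hepatoblast-like markers were present at like levels, with 2 of 12 lower (16.7%, against 25.8% of all genes tested) and the others not called. The median was -0.03. These markers summed to 669, 939 and 427 TPM in EKLF/GFP+ and 620, 709 and 782 in EKLF/GFP-. Afp, the most abundant of them, measured 12581, 18824 and 8228 normalized counts in EKLF/GFP+ and 11488, 13480 and 13571 in EKLF/GFP-, and 11 of the 12 were lowest in EKLF/GFP+ replicate 3, the library with the highest macrophage-like sum of its group. Their medians changed sign between alternatives.

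Mast cell- or basophil-like markers had 1 of 6 tested members lower and the others not called (median 0.00, of either sign between alternatives), with sums of 95.5, 118 and 161 TPM against 219, 146 and 232. The fall was Hdc, which makes histamine and was the most abundant, at 2042, 1965 and 2760 normalized counts in EKLF/GFP+ and 5568, 4234 and 4649 in EKLF/GFP-. It was not called with an offset for transcript length or on the authors' normalized counts, while Cpa3, the mast cell carboxypeptidase, measured 1192, 1379 and 1668 normalized counts in EKLF/GFP+ and 2146, 1518 and 1975 in EKLF/GFP-. Mesenchymal-like markers were near the limit of detection, at 1.80, 2.14 and 2.20 TPM against 4.88, 4.60 and 2.44, with Col3a1 the most abundant. Of 7 tested 2 fell (28.6%, near the 25.8% of all genes tested), Pdgfrb at -1.77 and Col1a1 at -1.42. The median was -0.42, and Des and Pdgfra were too low to be tested. Without any library but EKLF/GFP- replicate 3, 1 marker was called lower.

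Proliferation genes were abundant in both groups and modestly higher in EKLF/GFP+. Of 22 genes of DNA replication 17 rose (median 0.38), and of 21 mitotic genes 14 rose (median 0.34). Ccne1, the cyclin of entry into S phase, measured 4698, 4087 and 4421 normalized counts in EKLF/GFP+ and 2080.4, 2587 and 1782 in EKLF/GFP-, and was the single gene of either list that rose at least 2-fold. Mki67, a marker of cycling cells, measured 167140, 189250 and 179100 normalized counts in EKLF/GFP+ and 117130, 127920 and 103300 in EKLF/GFP-. Without EKLF/GFP- replicate 1 the rises were 10 and 9. Of 10 D-type cyclins, their kinases and inhibitors, 3 rose and 3 fell, each 30.0% against 18.9% and 25.8% of all genes tested. The median was -0.07, of either sign between alternatives. Ccnd3, the cyclin D of erythroblasts, rose by 0.59, and Cdkn2c, an inhibitor induced in late erythroblasts, measured 274, 254 and 292 normalized counts in EKLF/GFP+ and 129.5, 133 and 131 in EKLF/GFP-. Ccnd1 and Cdk6 had log2 fold changes of -2.16 and -0.87. Among the cyclins D, Ccnd3 took 85.1%, 89.7% and 87.6% of the TPM in EKLF/GFP+ and 78.4%, 79.2% and 83.2% in EKLF/GFP-.

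Glycolysis was lower in sum and exchanged isoenzymes. Of 20 genes 6 rose and 9 fell (median -0.38), and they summed to 17310, 17864 and 17731 TPM in EKLF/GFP+ and 22801, 22962 and 26086 in EKLF/GFP-. Gapdh, the most abundant, did not pass (-0.36), and its reads are shared with many pseudogenes. Pklr, the pyruvate kinase of liver and red cells, measured 492, 458 and 462 TPM in EKLF/GFP+ and 185, 211 and 189 in EKLF/GFP-, whereas Pkm, the form of most other tissues, measured 156, 169 and 184 TPM in EKLF/GFP+ and 342, 323 and 415 in EKLF/GFP-. Pklr thus made up 75.9%, 73.1% and 71.6% of the TPM of both in EKLF/GFP+ and 35.1%, 39.5% and 31.4% in EKLF/GFP-. Hk1, the hexokinase of red cells, took 92.8%, 91.6% and 90.7% of hexokinase TPM in EKLF/GFP+ and 66.7%, 73.7% and 64.0% in EKLF/GFP-. Hk1 rose (0.80) while Hk2 and Hk3, the latter a myeloid form, fell (-1.27 and -2.55). Pfkm, the muscle and red cell form of phosphofructokinase, made up 79.0%, 85.6% and 85.7% of Pfkm and Pfkp against 38.6%, 44.2% and 40.1%. On the authors' normalized counts 3 rises of the list were called, and that of Pfkm was not.

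Of 12 transporters of glucose, amino acids and lactate 11 rose and 1 fell (median 0.69). Slc2a4, the insulin-responsive glucose transporter, rose most at 1.84, and Slc2a1, the main glucose transporter of fetal red cells, measured 4796, 5017 and 5185 normalized counts in EKLF/GFP+ and 2535, 2315 and 2155 in EKLF/GFP-. Slc6a9 imports glycine, the substrate of Alas2, and measured 3624, 4349 and 4314 normalized counts in EKLF/GFP+ and 1389.8, 1443 and 1324 in EKLF/GFP-. Slc7a11, the cystine exchanger, was the fall, at -0.63. Cholesterol synthesis had 5 of 22 higher (22.7%) and 4 lower (18.2%), near the 18.9% and 25.8% of all genes tested, and a median of 0.01 whose sign changed between alternatives. Without EKLF/GFP- replicate 1, 3 were called higher and 3 lower. Among the rises were Fdft1 and Sqle, at 0.52 and 0.50, and among the falls Mvd, at -0.81. Lipid uptake and efflux had 2 of 15 higher and 6 lower (median -0.17). Fabp5, a fatty acid binding protein, was abundant and rose (0.89), and Apoe, secreted by macrophages, fell by 0.62, a call lost in 6 of 17 alternatives. Without EKLF/GFP+ replicate 1 the counts of this list were 4 higher and 4 lower.

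Autophagy had 11 of 20 tested members higher and 5 lower (median 0.38). Sqstm1, a cargo receptor, measured 2936, 2771 and 4365 normalized counts in EKLF/GFP+ and 1668, 1712 and 1713 in EKLF/GFP-, and Wipi1, a scaffold of the forming membrane, had the largest rise at 1.27. The 5 falls were Atg3, Atg5, Atg7 and Atg12, between -0.53 and -0.23, and the kinase Ulk2, while its paralog Ulk1 rose (0.69). With the replicate number as a block, 2 falls were called, and the calls of Atg5, Atg12 and Atg7 were lost in 14, 11 and 7 of 17 alternatives. In the stress list 5 of 14 rose and 6 fell (median -0.06, of either sign between alternatives). Eif2ak1, the kinase that halts translation when heme is scarce, measured 9788, 10529 and 10244 normalized counts in EKLF/GFP+ and 5363, 5759.9 and 4673 in EKLF/GFP-, and took 64.5%, 67.0% and 66.0% of the TPM of the 4 kinases of its family in EKLF/GFP+ and 40.2%, 49.8% and 42.0% in EKLF/GFP-. Asns and Atf4, which act after it, rose by 1.08 and 0.37. Among the falls of this list were Hspa5 at -0.84, Hsp90b1 at -0.88, Calr at -1.09 and Xbp1 at -1.18.

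Within the Klf and Sp family 7 of 18 tested members rose (38.9%, against 18.9% of all genes tested) and 6 fell (33.3%, against 25.8%). The median was -0.07, of either sign between alternatives. Without EKLF/GFP- replicate 1, and likewise on the authors' normalized counts, 6 rises and 2 falls were called. Klf4, a factor of monocytes, and Klf2, a factor of quiescent leukocytes and endothelium, fell by 4.46 and 2.07. The rises, Klf1 among them, reached 1.68. Klf4 was scarce and measured 7.57, 6.49 and 7.27 normalized counts in EKLF/GFP+ and 171, 159.9 and 146 in EKLF/GFP-. Klf4 passed the count filter only through the EKLF/GFP- libraries, so its call depends on that filter, and it was tested in 13 of 17 alternatives. Klf6 fell by 0.78, a call that was lost in 6 of 17 alternatives, with -0.19 on the authors' normalized counts. Early response and heat shock genes, which respond to handling, had 3 of 17 higher (17.6%) and 7 lower (41.2%), with a median of -0.79. The share higher was near the 18.9% of all genes tested. Jun and Fos measured 383, 473 and 418 normalized counts in EKLF/GFP+ and 1636, 935 and 1113 in EKLF/GFP- and 339, 386 and 438 normalized counts in EKLF/GFP+ and 1534, 846 and 899 in EKLF/GFP-, lower in each EKLF/GFP+ library. Btg2, an inhibitor of proliferation, rose most at 1.06, and Hsph1, a chaperone and the most abundant of the list, rose by 0.39. A single rise was called with an offset for transcript length.

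The large housekeeping lists moved little. Of 81 cytosolic ribosomal protein genes 5 rose (6.17%, median 0.16), and of 75 mitochondrial ribosomal ones 17 rose (22.7%, median 0.15) and 1 fell. Of 78 nuclear genes of the respiratory chain 14 rose (17.9%, median 0.19). The shares of the latter 2 lists were near the 18.9% of all genes tested. The rises of these lists ranged from 1 to 24, 2 to 26 and 7 to 25 between alternatives without a fold limit. Without EKLF/GFP+ replicate 1 there were 24 rises of cytosolic ribosomal proteins. Of 13 proteins encoded by mitochondrial DNA 1 fell, mt-Atp6 at -0.55 (median -0.03, of either sign between alternatives). This call was lost in 6 of 17 alternatives, and between alternatives 0 to 2 of these genes were lower and 0 or 1 higher. Their genes took 1.82% of counts in EKLF/GFP+ and 2.02% in EKLF/GFP- on average (exact permutation p = 0.4), and cytosolic ribosomal protein genes 7.75% and 7.27% (exact permutation p = 0.4). The 20 most counted genes took 7.90% and 8.01% (exact permutation p = 0.8). Of 66 replication-dependent histone genes 23 rose (median 0.33). Their copies are nearly identical and their transcripts carry no poly-A tail, and the count ranged from 6 without EKLF/GFP- replicate 1 to 39 without EKLF/GFP+ replicate 1.

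Beyond the lists, the largest changes named genes of varied roles. Hsd3b6, a steroid dehydrogenase, measured 9696, 6717 and 19422 normalized counts in EKLF/GFP+ and 1833, 558 and 685 in EKLF/GFP-. Pdzk1ip1, a small membrane protein, measured 506, 397 and 848 normalized counts in EKLF/GFP+ and 86.3, 51.5 and 74.2 in EKLF/GFP-, and Tent5c, a poly-A polymerase known from B cells and erythroblasts, 2996, 2365 and 3959 normalized counts in EKLF/GFP+ and 977, 861 and 547 in EKLF/GFP-. The groups were apart in all 3, which the choice of these genes required. Slc30a10, a manganese exporter, Rragd, a GTPase of nutrient sensing at lysosomes, and Prokr1, a receptor for prokineticins, had log2 fold changes of 2.23, 2.13 and 1.97. The call of Prokr1 was lost on the authors' normalized counts. The processed pseudogenes Gm5526 and Gm7993 were among the 15 largest rises, at 2.00 and 1.94, and their reads may belong to parent genes. Among the falls were Vcan, a proteoglycan of monocytes, at -4.20, F13a1, a transglutaminase of monocytes and platelets, at -4.19, Abcb1b, a drug efflux pump of stem cells, at -4.21, and the interferon-inducible Ifi211 at -4.13. Gm1966, annotated as an unprocessed pseudogene, was highly counted and measured 501, 607 and 756 normalized counts in EKLF/GFP+ and 12772, 11745 and 11882 in EKLF/GFP-.

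Transcript usage, the share of a gene that each of its transcripts takes, was tested in 9182 genes, and 117 (1.27%) passed by edgeR's splicing test. Ipp-201 took 35.6%, 37.7% and 47.8% of Ipp in EKLF/GFP+ and 0% in each EKLF/GFP- library. Macf1-215, of the gene of a giant linker between actin and microtubules, took 45.5%, 29.6% and 31.3% against 10.8%, 17.9% and 5.33%. Trps1-207, of a GATA-type repressor gene, took 0% in each EKLF/GFP+ library against 30.0%, 19.7% and 26.9%. Rnf220-201 took 4.07%, 3.33% and 5.56% against 27.7%, 22.2% and 25.6%, and Irak2-207, a transcript with a retained intron, took 42.7%, 52.8% and 52.2% against 25.3%, 28.9% and 26.7%. These genes were picked among those whose shares did not overlap between the groups, so the lack of overlap is no support for their calls. On simulated data this test made more false calls than true ones, so its count and its single calls are uncertain, and the genes are named for the size of their shares. Add2, Ank1, Epb41, Pkm, Ptprc and Cd44, looked at for their known isoforms, were tested and not called. With a spread of its own for each transcript, an alternative chosen after seeing the data, 0 genes passed, although 534 had an unadjusted p under 0.05 against 346 in the test above, and the files do not give the uncertainty of assigning reads to transcripts. Retained-intron transcripts took 8.91% of counts in EKLF/GFP+ and 8.64% in EKLF/GFP- (exact permutation p = 0.4).

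Transcript length moved with the comparison. The median log2 fold change went from 0.05 in the 2850 shortest genes to -0.11 in the 2850 longest, and the share called lower from 14.8% to 34.4%. The part of length in the falls was not tested beyond the offsets for length, under which 2054 to 3264 genes were higher and 3107 to 3451 lower. RNA integrity and kit cannot be told apart from the group here.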

How the data were processed

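RNA of 3 EKLF/GFP+ and 3 EKLF/GFP- libraries was analysed. The authors mapped the reads with Salmon (version not stated) to the Ensembl GRCm38 transcriptome, and deposited estimated counts and TPM per transcript. The authors' table of normalized counts, a signal made by the authors with tximport and DESeq2, was used in an alternative only. Of 116546 transcripts, 115977 were joined to GENCODE vM21, and estimated counts were summed to 35454 gene symbols and rounded. Symbols that several genes share were summed.

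A gene was tested when 3 or more libraries held 10 or more counts of it. Scaling was by TMM and the test that of edgeR 4.0.16 (quasi-likelihood, two-sided, Benjamini-Hochberg over all genes tested, threshold 0.05). Normalized counts are scaled to the mean effective depth. Transcript usage was tested with diffSpliceDGE of edgeR (Simes), for genes with at least 2 transcripts of at least 10 counts in 3 libraries, and shares of counts with an exact permutation test, whose smallest p is 0.1. Both tests were tested on simulated data with the spread of these libraries. That of genes recovered most of the known changes, with a share of false calls above the threshold. That of transcript usage recovered a minority and made more false calls than true ones, and a spread of its own for each transcript lowered the false calls to a few, so its calls are uncertain. At these depths, genes under 10 counts in most libraries are not resolved, and 3 libraries per group limit the precision.

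The members and the lists were chosen with earlier results of these data known. Lists carry no test and are described by counts and a median beside those of all genes. Named genes were those of the sort and the study, 15 rises and 15 falls of largest size among called genes (mean normalized count of 100 or more, groups apart), for each list the most abundant member by TPM and the called members with the largest rise and fall at that mean, members of lists of up to 10, and the 20 genes with the highest TPM. For transcript usage they were the 12 called genes with the largest difference in share, plus 16 listed genes. The 12 needed a mean of at least 200 counts and no overlap of that share between the groups. Not all of these are described, and other list members given as examples were chosen after their values had been seen. A gene with up to 3 counts in every library of a group would have its fold given as a bound.

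Alternatives were DESeq2 1.42.0, its size factors in edgeR, both other count filters, a 2-fold limit, the replicate number as a block, offsets for transcript length, both together, no globin genes, limma 3.58.1 on the authors' normalized counts plus 1, and leaving out each library. Python 3.11.15 with pandas 2.3.3, scipy 1.17.1, numpy 2.4.6 and matplotlib 3.10.9 was used beside R 4.3.3. The other libraries of the series were not used.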

Additional observations from a re-analysis of the deposited data

How the results depend on the processing

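The number of genes higher in EKLF/GFP+ was 2695 and lay between 2054 and 3264 under the other scalings, filters, tools and offsets, and the number lower was 3677 and lay between 2756 and 3674. When any library was omitted, 1916 to 2786 genes were higher and 2822 to 3454 lower. With a 2-fold limit, which admits fewer genes by construction, 711 were higher and 2093 lower. The median log2 fold change over all genes moved by at most 0.04. Of 57 lists, 47 kept the sign of their median under every alternative, among them all 33 with a median beyond 0.5 in size. Of 199 named genes that were called, 133 were called in the same direction under every alternative.

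Replicate numbers are not known to pair libraries, and correlations between residuals of like-numbered libraries were 0.03, -0.09 and 0.03. With the replicate number as a block, 2363 genes were higher, 3426 were lower, 67 changed in transcript usage, and Afp had a log2 fold change of -0.034.

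Genes with a change in transcript usage numbered 30 with at least 10 counts in every library, 71 for transcripts with at least 5% of their gene, 0 with a spread of its own for each transcript, and 74 to 142 with a library left out. The cause was not tested. The difference in the share of globins was 0.658 percentage points of counts and 1.06 of TPM, a scale that weights short transcripts more, and 0.589 to 0.772 of counts with a library left out.

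Some values changed sign. On the authors' normalized counts Tmem173 had a log2 fold change of 0.34, Adgrg1 of 0.54 and Afp of -0.0069. The offset for average transcript length gave 0.061 for Psmb10, and that for the length trend 0.077 for Cdh5. With a library left out, log2 fold changes ranged from -0.10 to 0.57 for Adgre1, -0.021 to 0.68 for Mertk, -0.29 to 0.30 for Afp, -0.18 to 0.42 for C1qb and -0.37 to 0.26 for Cdh5. The cause was not tested.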
